A study of Mus musculus with 6 samples.

Results

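The genes described are the mouse vascular endothelial growth factor (VEGF) receptors, their neuropilin co-receptors and their ligands, as measured in hematopoietic stem cells (HSC). They were taken by symbol from the deposited table of 24062 genes, and all 9 were found: the receptor tyrosine kinases Flt1, Kdr and Flt4, the neuropilins Nrp1 and Nrp2, and the ligands Vegfa, Vegfb, Vegfc and Pgf. The set was proposed with the levels in these same libraries known, so the differences of the 9 genes between the groups are given as a description, without a test.

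VEGF receptors are cell surface kinases that pair up when a ligand binds and pass the signal to phospholipase C gamma, the ERK kinases and AKT. VEGF-A acts mainly through VEGFR2 (Kdr) and VEGF-C through VEGFR3 (Flt4), while VEGF-B and placental growth factor (Pgf) bind, of the receptor kinases, VEGFR1 (Flt1), which also exists as a soluble decoy. Neuropilins have no kinase and hold VEGF or class 3 semaphorins at the cell surface beside receptor kinases or plexins. The receptors are best known from blood and lymphatic endothelium, and HSC are known to make VEGF-A that acts inside the cell that makes it.

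Bulk RNA was sequenced from sorted HSC in 2 groups of 3 libraries, each library made from a pool of 3 to 5 mice. All mice had Nr4a1 fl/fl alleles and were Nr4a3-/-, and all received tamoxifen at 120 mg per kg in 4 daily injections, with the sort on day 5. The mice called CDKO carried in addition a construct labelled Rosa26-ERt2, by background a Cre recombinase that tamoxifen activates, driven by a locus active in most cell types, and the mice called control lacked it. The comparison asks what differs in HSC when Nr4a1 is excised in animals already without Nr4a3. The presence of Cre and the loss of Nr4a1 cannot be told apart in this design, and no batch is labelled. The libraries held 32863805 to 42772261 counted reads. A library with 0 reads of a gene allows a level of up to 0.0701 to 0.0913 CPM (counts per 1000000 counted reads), depending on the library, taken as 3 reads and covering counting error only.

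Nr4a1 averaged 13.8 ± 1.18 CPM in control and 9.13 ± 0.623 CPM in CDKO libraries (SD, n = 3) and was lower in CDKO (limma adjusted p = 0.00204), and Nr4a3 had 0 reads in all 6 libraries. Counts per gene do not separate excised exons from kept ones, so the level of Nr4a1 does not measure the excision. All 12 HSC markers passed the filter on low values, and the most abundant was Kit, the receptor for stem cell factor, with 2046 CPM in control against 1631 CPM in CDKO libraries. The p-values given for genes outside the family measure the spread between these pools.

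The bases before the RefSeq start of 4 genes are shown (mouse build GRCm38.p6, which is mm10; up to 250 bases, read 5′ to 3′ on the strand of the gene): Nrp1, Kdr and Vegfb, which were higher in CDKO libraries, and Vegfc, which was lower. The windows of Flt4 and Pgf lie in annotated exons and are not printed, and 3 exonic bases were trimmed from that of Kdr. The window of Nrp1 has 0 bases in exons but lies inside the annotated gene, which starts at 128358604, so it is not upstream of the whole gene. Capitals mark GC boxes, the letters GGGCGG on either strand, a motif bound by SP1-type factors.
Nrp1, chr8:128358823-128359072, plus strand: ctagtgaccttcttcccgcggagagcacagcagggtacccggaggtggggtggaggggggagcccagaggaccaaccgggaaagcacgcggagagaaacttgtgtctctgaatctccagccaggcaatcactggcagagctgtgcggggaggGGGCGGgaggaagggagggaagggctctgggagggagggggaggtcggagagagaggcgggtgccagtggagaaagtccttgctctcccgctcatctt
Kdr, chr5:75978459-75978705, minus strand: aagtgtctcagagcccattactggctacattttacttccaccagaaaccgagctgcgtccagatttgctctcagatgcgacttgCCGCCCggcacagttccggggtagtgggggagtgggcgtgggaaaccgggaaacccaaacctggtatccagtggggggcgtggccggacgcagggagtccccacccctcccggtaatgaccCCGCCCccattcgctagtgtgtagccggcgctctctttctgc
Vegfb, chr19:6987652-6987901, minus strand: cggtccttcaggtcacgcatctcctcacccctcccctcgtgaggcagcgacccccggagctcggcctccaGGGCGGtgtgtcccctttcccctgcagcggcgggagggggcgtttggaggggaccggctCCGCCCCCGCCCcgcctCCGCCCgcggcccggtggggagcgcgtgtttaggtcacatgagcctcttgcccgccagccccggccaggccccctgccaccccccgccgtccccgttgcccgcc
Vegfc, chr8:54077282-54077531, plus strand: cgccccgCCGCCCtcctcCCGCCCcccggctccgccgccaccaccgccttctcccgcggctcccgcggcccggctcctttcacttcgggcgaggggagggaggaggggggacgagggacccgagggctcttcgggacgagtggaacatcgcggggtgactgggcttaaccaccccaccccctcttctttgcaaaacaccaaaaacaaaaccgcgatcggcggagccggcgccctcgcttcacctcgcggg

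All 9 genes had a RefSeq window of 250 bases, 11 windows in all, since Vegfa and Pgf have 2 starts each. GC boxes lay in 10 of these 11 windows, against 32.7% of all 32851 RefSeq windows of that length. The windows of the family held 59.2% to 76.4% G and C, where the median of all windows was 52.4%. The NR4A binding site AAAGGTCA was in 0 of the 11 windows and in 1.34% of all windows. The hypoxia factor core ACGTG was in 1 window, of Vegfa (16.6% of all windows), and its variant GCGTG in 7 windows (28.2% of all windows). For Vegfa, ACGTG and GCGTG lay only in the window from 46025164 to 46025413, inside the gene, with 218 of its 250 bases in exons. The Vegfa window before the gene, from 46032378 to 46032627, held neither. The ETS factor core AGGAAG was in the windows of Flt1 and Nrp1 (29.5% of all windows), and the TATA box TATAAA in that of Flt1 (12.4% of all windows). A spaced interferon element was in 1 window, of Vegfa (2.98% of all windows). Both strands were searched for each motif, matches of different motifs did not overlap in these windows, and a match is a description of the letters only.

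**Figure D1:**
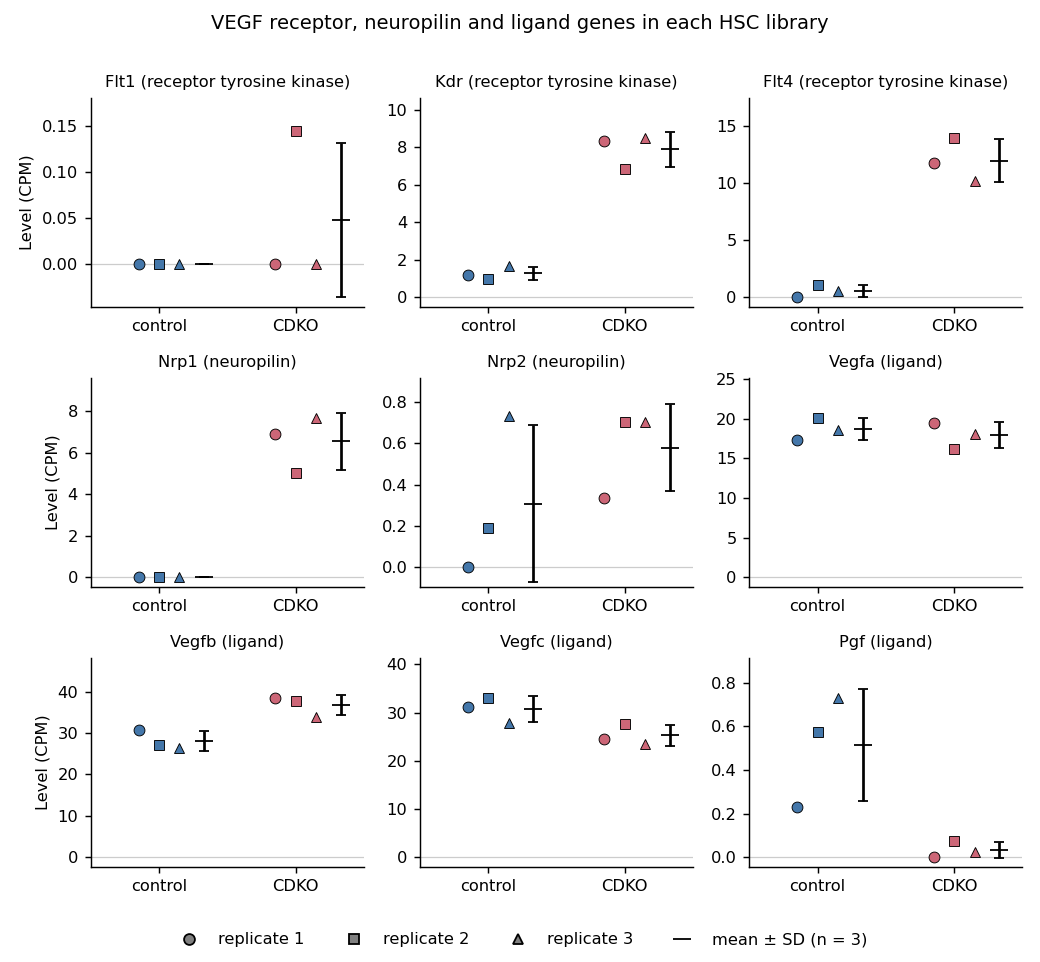
Level of each of the 9 genes in CPM (linear axes with a grey line at 0) in the 3 control and 3 CDKO libraries, with a symbol for each replicate number and a bar for the mean ± SD. Every CDKO library lies above every control library for Kdr, Flt4, Nrp1 and Vegfb, while Flt1, Nrp2 and Vegfa overlap.

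The receptor side of the family was low or undetected in control HSC, and Kdr, Flt4 and Nrp1 were clearly detected in CDKO HSC, while 3 of the 4 ligands were well detected in both. Across the 9 genes, 4 were higher in every CDKO library than in any control library (Kdr, Flt4, Nrp1 and Vegfb), 2 were lower (Vegfc and Pgf) and 3 overlapped (Flt1, Nrp2 and Vegfa). Groups without overlap were common: they made up 70.6% of the 13734 genes tested, 33.4% higher and 37.2% lower in CDKO libraries, and nothing is read from the number among the 9. A mean of at least 10 reads over the 6 libraries was reached by 8 of the 9 genes, by Nrp1 only through its CDKO reads and by Pgf only through its control reads, and Flt1 did not reach it. Since RNA was pooled from many cells, fewer cells with a transcript and less of it per cell cannot be told apart for any of these genes. The SE given below with a log2 difference is that of the limma fit, which draws the variance of each gene towards the trend of all genes tested. For a gene that varies widely between libraries, such as Flt4 or Nrp2, it is smaller than the SE of the gene's own values. It is given as a description and not as a test.

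Kdr (ENSMUSG00000062960, chromosome 5, 75932827 to 75978458, minus strand), the main signalling receptor for VEGF-A, was present at a low level in control HSC. Its levels were 1.20, 0.987 and 1.65 CPM in control replicates 1, 2 and 3 and 8.31, 6.82 and 8.51 CPM in CDKO replicates 1, 2 and 3. The lowest CDKO library was 5.17 CPM above the highest control library. The means of 1.28 ± 0.340 and 7.88 ± 0.921 CPM (SD, n = 3) gave a ratio of 6.15, and the difference in log2(CPM + 1) was 1.97 (SE 0.16). Leaving out any 1 library kept the ratio between 5.52 and 7.20.

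Flt4 (ENSMUSG00000020357, chromosome 11, 49609263 to 49652739, plus strand), the receptor for VEGF-C that lymphatic vessels need, had the largest difference in log2(CPM + 1) among the 9 genes. Its levels were 0.0511, 1.07 and 0.543 CPM in control replicates 1, 2 and 3 and 11.8, 14.01 and 10.2 CPM in CDKO replicates 1, 2 and 3. The groups were 9.12 CPM apart at their nearest values, and control replicate 1 held only 2 reads where control replicate 2 held 39. Means of 0.555 ± 0.509 and 11.99 ± 1.92 CPM (SD, n = 3) gave a ratio of 21.6 and a difference in log2(CPM + 1) of 3.11 (SE 0.23). That ratio moved with the control libraries: it was 40.4 without control replicate 2 and 14.9 without control replicate 1. The coefficient of variation among controls was 91.8%, which is 4.23 times that of read counting alone, and among CDKO libraries it was 15.98%.

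Flt1 (ENSMUSG00000029648, chromosome 5, 147561604 to 147726011, minus strand), the receptor for VEGF-B and Pgf, was close to undetected. It had 0 reads in every control library and in CDKO replicates 1 and 3, and 6 reads (0.145 CPM) in CDKO replicate 2. The groups overlapped, and with both means under the level that a count of 0 allows, no ratio is given. Counts per gene do not separate its membrane form from its soluble form.

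Nrp1 (ENSMUSG00000025810, chromosome 8, 128358604 to 128503363, plus strand), a co-receptor for VEGF-A and for semaphorin 3A, was detected in CDKO libraries only. It had 0 reads in all 3 control libraries and 227, 209 and 329 reads in CDKO replicates 1, 2 and 3, which is 6.91, 5.04 and 7.69 CPM. The CDKO mean of 6.55 ± 1.36 CPM (SD, n = 3) was at least 79.6-fold higher than control, set against the highest level that 0 reads allow in a control library, 0.0823 CPM. Its difference in log2(CPM + 1) of 2.90 (SE 0.17) depends on the pseudocount of 1 CPM and is no bound. The gene hosts the microRNA gene Mir1903.

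Nrp2 (ENSMUSG00000025969, chromosome 1, 62703285 to 62818695, plus strand), the co-receptor better known from lymphatic vessels and semaphorin 3F, stayed near the limit of detection. Its levels were 0, 0.192 and 0.732 CPM in control replicates 1, 2 and 3 and 0.335, 0.699 and 0.701 CPM in CDKO replicates 1, 2 and 3. The highest library of all was control replicate 3, so the groups overlapped, and the difference in log2(CPM + 1) was 0.30 (SE 0.21). The ratio of means was 1.88, and 6.03 without control replicate 3, where the groups no longer overlapped. The antisense gene Gm29083 and the gene Gm37121 lie within Nrp2, and since this kit does not mark strand their reads cannot be told apart from its own.

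Vegfa (ENSMUSG00000023951, chromosome 17, 46016993 to 46032369, minus strand), the ligand of Kdr and Flt1 and a known target of hypoxia factors, was at a similar level in both groups. Its levels were 17.4, 20.2 and 18.6 CPM in control replicates 1, 2 and 3 and 19.4, 16.3 and 18.1 CPM in CDKO replicates 1, 2 and 3. The groups overlapped, and the means of 18.7 ± 1.39 and 17.9 ± 1.60 CPM (SD, n = 3) differed by less than either SD. The difference in log2(CPM + 1) was -0.06 (SE 0.11), and its sign turned under quantile normalization (0.01) and without CDKO replicate 2 (0.0069).

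Vegfb (ENSMUSG00000024962, chromosome 19, 6982473 to 6987651, minus strand), a ligand of Flt1, was moderately higher in CDKO libraries. Its levels were 30.9, 27.04 and 26.5 CPM in control replicates 1, 2 and 3 and 38.6, 37.8 and 33.9 CPM in CDKO replicates 1, 2 and 3. The groups were 3.09 CPM apart, with means of 28.1 ± 2.38 and 36.8 ± 2.48 CPM (SD, n = 3), a ratio of 1.31 and a difference in log2(CPM + 1) of 0.38 (SE 0.09). Its nearest coding neighbour, Dnajc4, lies on the same strand and ends 260 bases before the start of Vegfb. Dnajc4 fell, with 16.9 ± 1.76 CPM in control and 9.51 ± 2.03 CPM in CDKO libraries (limma adjusted p = 0.000962).

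Vegfc (ENSMUSG00000031520, chromosome 8, 54077606 to 54187096, plus strand), the ligand of Flt4, was slightly lower in CDKO libraries. Its levels were 31.1, 33.1 and 27.75 CPM in control replicates 1, 2 and 3 and 24.6, 27.68 and 23.5 CPM in CDKO replicates 1, 2 and 3. The groups were only 0.0670 CPM apart at their nearest values, control replicate 3 and CDKO replicate 2, and they overlapped after TMM scaling or quantile normalization. The means were 30.6 ± 2.70 and 25.3 ± 2.15 CPM (SD, n = 3), a difference in log2(CPM + 1) of -0.27 (SE 0.10).

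Pgf (ENSMUSG00000004791, chromosome 12, 85166635 to 85177790, minus strand), the other ligand of Flt1, was rare in control and close to undetected in CDKO libraries. It had 9, 21 and 31 reads in control replicates 1, 2 and 3 (0.230, 0.576 and 0.732 CPM) and 0, 3 and 1 reads in CDKO replicates 1, 2 and 3. Each CDKO library lay below each control library. The 61 control reads against 4 CDKO reads, scaled for depth, give a control to CDKO ratio of 15.1 with an exact 95% interval from 5.62 to 57.4, which covers counting error and not the spread between pools.

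**Figure D2:**
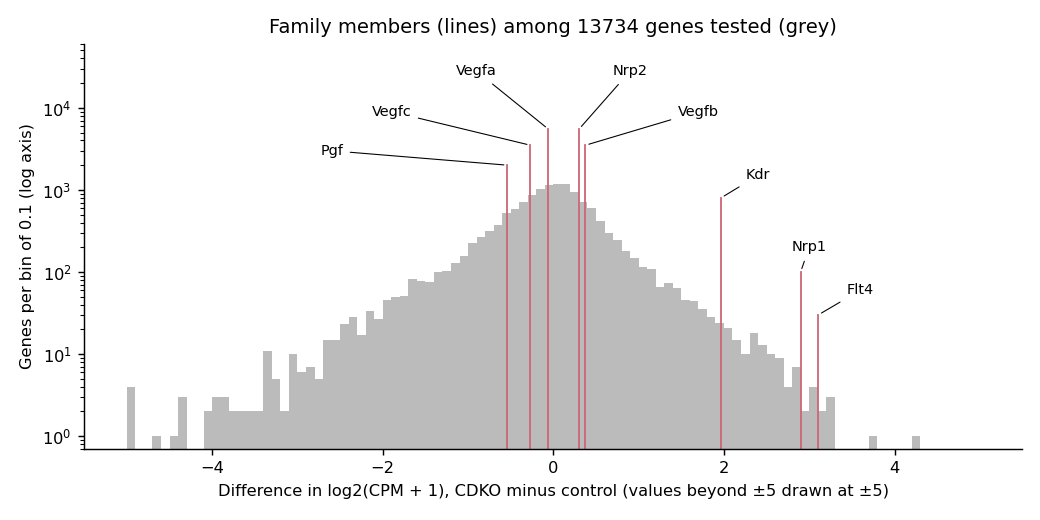
Histogram of the difference in log2(CPM + 1), CDKO minus control, for the 13734 genes tested (grey, log count axis), with a line at each of the 8 family genes that passed the filter. Flt4, Nrp1 and Kdr lie in the upper tail and the other 5 lie in the body of the distribution.

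Among all genes tested, the median absolute difference in log2(CPM + 1) was 0.34. By the size of the difference whatever its sign, Flt4 stood at percentile 99.6, Nrp1 at 99.5 and Kdr at 97.3. Pgf stood at percentile 67.8, Vegfb at 54.1, Nrp2 at 46.1, Vegfc at 42.1 and Vegfa at 9.90. The scale damps differences of rare genes, so the place of Pgf understates its ratio.

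**Figure D3:**
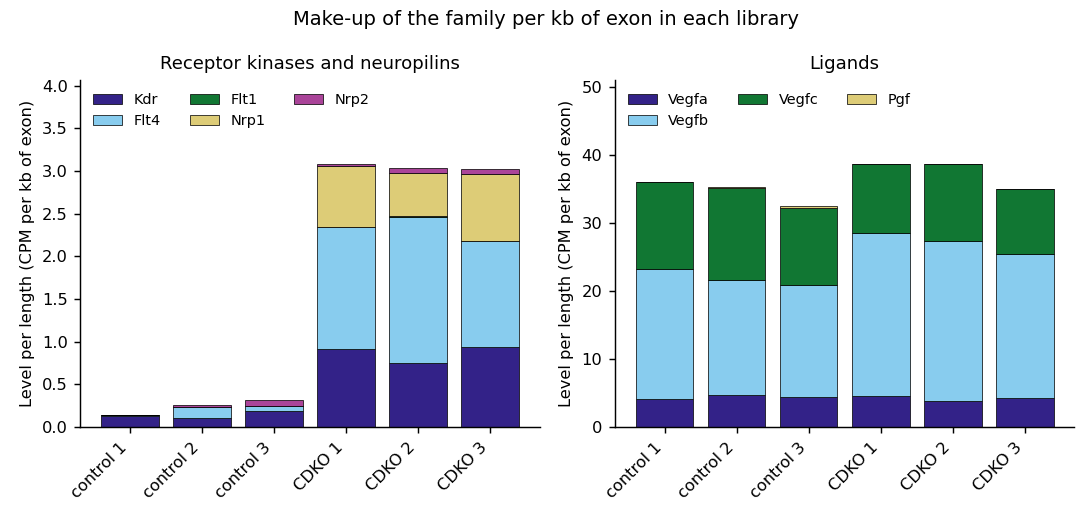
Stacked bars of CPM per kb of exon in each of the 6 libraries, for the receptor kinases and neuropilins (left) and the ligands (right). The receptor total is at most 0.311 in control libraries and at least 3.03 in CDKO libraries, while the ligand totals overlap between the groups.

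Divided by the length of all annotated exons, levels can be compared only roughly between genes, since the transcript forms made in these cells are not known. The order of Vegfb and Vegfc in control HSC depends on this length. In CPM the control mean of Vegfc, 30.6, was above that of Vegfb, 28.1. In control HSC the order in CPM per kb was Vegfb at 17.5 ± 1.48, Vegfc at 12.5 ± 1.104 and Vegfa at 4.37 ± 0.324 (SD, n = 3), and the libraries of these 3 ligands did not overlap. Below them Pgf, Kdr, Flt4 and Nrp2 followed at 0.177, 0.142, 0.0674 and 0.0260 CPM per kb, each overlapping the next, and Flt1 and Nrp1 were at 0. In CDKO HSC the same 3 ligands led in the same order without overlap, with Vegfb at 22.9 ± 1.55, Vegfc at 10.3 ± 0.878 and Vegfa at 4.19 ± 0.374 CPM per kb (SD, n = 3). Flt4 followed at 1.46 ± 0.233 CPM per kb and stood above Kdr at 0.873 ± 0.102 in all libraries (SD, n = 3). Nrp1 at 0.669 ± 0.139 CPM per kb (SD, n = 3) overlapped Kdr. Nrp2, Pgf and Flt1 came last at 0.0488, 0.0110 and 0.00357 CPM per kb, and the last pair overlapped.

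The level summed over the 5 receptor kinase and neuropilin genes was 0.139, 0.255 and 0.311 CPM per kb in control replicates 1, 2 and 3 and 3.08, 3.04 and 3.03 CPM per kb in CDKO replicates 1, 2 and 3. The CDKO sum had an SD of 0.0303 (n = 3), against 0.144 for its kinase part and 0.136 for its neuropilin part. Read counting alone gives a coefficient of variation in CDKO libraries of 4.65% for Flt4, 5.75% for Kdr and 6.31% for Nrp1. Nothing is therefore read from the small SD of the sum. The ratio of the CDKO mean to the control mean was 12.97 for this sum and 11.2 for the kinases alone. The 4 ligands summed to 34.6 ± 1.91 CPM per kb in control and 37.4 ± 2.10 CPM per kb in CDKO libraries (SD, n = 3), with overlap. Kdr made up 42.8 to 95.5% of the receptor sum in control and 24.8 to 31.1% in CDKO libraries. Flt4 made up 4.46 to 50.9% in control and 40.9 to 55.9% in CDKO libraries, with overlap, and Nrp1 0% and 16.9 to 26.0%. Vegfb made up 47.8 to 53.3% of the ligand sum in control and 60.4 to 62.3% in CDKO libraries, and Vegfc 34.9 to 38.3% and 26.0 to 29.2%.

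Ratios within a library do not depend on its scaling. Vegfb over Vegfc, in CPM, was 0.993, 0.817 and 0.955 in control replicates 1, 2 and 3 and 1.57, 1.37 and 1.44 in CDKO replicates 1, 2 and 3. So Vegfb reads were fewer than Vegfc reads in every control pool and more in every CDKO pool. In control replicates 1 and 3 the counts were close, at 1207 against 1216 and 1122 against 1175 reads. Counting error leaves their order in those 2 libraries unsure. Vegfb over Vegfa also separated the groups, with means of 1.51 ± 0.230 and 2.06 ± 0.236 (SD, n = 3). Vegfc over Vegfa overlapped, with 1.64 ± 0.148 and 1.42 ± 0.244 (SD, n = 3). Flt4 over Kdr, per kb, ran from 0.0467 to 1.19 in control and from 1.31 to 2.25 in CDKO libraries, and Nrp1 over Kdr, per kb, from 0.682 to 0.834 in CDKO libraries.

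For each family gene past the filter, the 2 genes whose log2(CPM + 1) followed it most closely over the 6 libraries, among 13733 compared, are named by Pearson's r as a description, since the libraries fall into 2 groups and share their depth. They were Mthfd1l and Lrpprc for Kdr (0.9995 and 0.9988), Zfp777 and Camsap2 for Flt4 (0.9989 and 0.9988), and Teddm1 and Lrrc8a for Nrp1 (0.9997 and 0.9996). Teddm1, like Nrp1, had 0 reads in control libraries, and its CDKO mean was 1.499 CPM. For Nrp2 they were Lsm10 and Tusc1 (0.988 and 0.985). For the ligands they were Orc4 and Usp27x for Vegfa (0.965 and 0.947), Got2 and Tubg1 for Vegfb (0.998 and 0.997), Pdcd6ip and Frrs1 for Vegfc (0.990 and 0.989), and Zfand1 and Ccm2l for Pgf (0.9955 and 0.9954).

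Genes that work with the family were tested in lists chosen from knowledge of the pathway. In limma, 66.2% of all 13734 genes passed an adjusted p of 0.05 (31.1% higher and 35.2% lower in CDKO libraries) and the median difference in log2(CPM + 1) was -0.02, and each list is to be read beside these values.

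**Figure D4:**
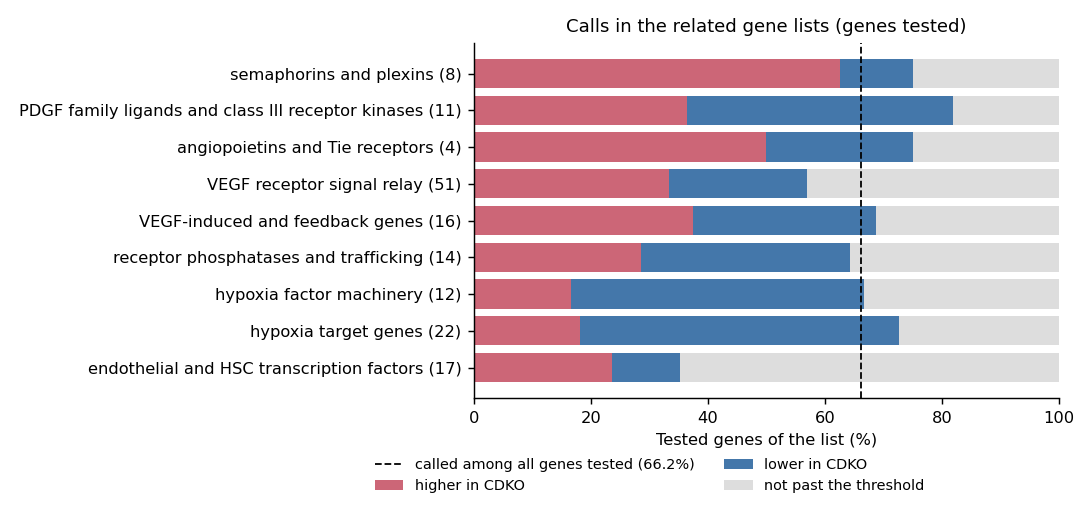
For each related gene list, the percent of its tested genes (number in brackets) that were higher, lower or not past the threshold in CDKO libraries (limma adjusted p of 0.05), with the 66.2% called among all genes tested as a dashed line. The semaphorin and plexin list has 5 of 8 tested genes higher, and the hypoxia target list has 12 of 22 lower.

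Of 13 semaphorin and plexin genes, the partners of neuropilins, 8 were tested, 5 rose and 1 fell, with a median log2 difference of 0.33. Sema3g, a secreted semaphorin of endothelium, rose with 0.119 ± 0.207 against 2.39 ± 0.365 CPM, control first as in the pairs that follow (limma adjusted p = 1.15e-05). Plxna1 and Plxnd1, plexins that signal beside neuropilins, rose as well. Plxna1 averaged 25.9 ± 2.63 against 37.9 ± 2.80 CPM (limma adjusted p = 0.000469) and Plxnd1 36.9 ± 4.73 against 47.6 ± 3.30 CPM (limma adjusted p = 0.00546). Gipc1, which binds the tail of Nrp1, averaged 71.5 ± 5.01 against 87.9 ± 8.19 CPM (limma adjusted p = 0.00545). The 1 lower call was Plxna3, with 23.99 ± 3.69 against 16.3 ± 5.49 CPM and overlapping groups (limma adjusted p = 0.0232). It was lost with no filter on low values and without CDKO replicate 1, CDKO replicate 3, control replicate 2 or control replicate 3 (limma adjusted p up to 0.107), which leaves 0 lower calls in the list. Sema3a, a main Nrp1 ligand, had 0 reads in all libraries.

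Of 14 genes of the platelet-derived growth factor (PDGF) family and its class of receptor kinases, which resemble the VEGF receptors in build, 11 were tested, 4 rose and 5 fell (median log2 difference -0.29). Without CDKO replicate 2, control replicate 1 or control replicate 2, the number that rose was 2. Pdgfra, a PDGF receptor, fell from 5.30 ± 0.686 CPM in control to 0 reads in all 3 CDKO libraries (limma adjusted p = 1.90e-07). Csf1r, the receptor that drives macrophage growth, averaged 3.22 ± 0.626 against 21.5 ± 1.68 CPM and rose (limma adjusted p = 2.86e-07). It also belongs to the macrophage markers. Kit, with 2046 ± 64.6 against 1631 ± 67.7 CPM (limma adjusted p = 7.85e-05), and the ligand gene Pdgfd, with 17.8 ± 1.12 against 11.8 ± 1.03 CPM (limma adjusted p = 0.00115), fell. Figf, which encodes the VEGFR3 ligand VEGF-D, had 0 reads in control libraries and a CDKO mean of 0.0241 CPM.

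In the angiopoietin pathway, another receptor system of vessels, 4 of 6 genes were tested, 2 rose and 1 fell (median log2 difference 0.22). Tek, the angiopoietin receptor that HSC carry, rose and averaged 70.9 ± 7.03 against 122 ± 1.01 CPM (limma adjusted p = 2.62e-06). Its ligand Angpt1 fell and averaged 771 ± 48.5 against 651 ± 11.3 CPM (limma adjusted p = 0.000951). Tie1, at 290.1 and 282 CPM, was not past the threshold. Angpt2 passed at 0.462 ± 0.355 against 1.005 ± 0.0815 CPM (limma adjusted p = 0.0370), but not in edgeR (adjusted p = 0.138), in DESeq2 (adjusted p = 0.158) or with a pseudocount of 5 (limma adjusted p = 0.0511). It also missed the threshold when any 1 CDKO library, control replicate 1 or control replicate 2 was left out (limma adjusted p from 0.0542 to 0.137).

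Of 55 genes that relay the signal of VEGF receptors inside the cell, 51 were tested, 17 rose and 12 fell, which is 56.9% called, with a median log2 difference of 0.04. Plcg1, the phospholipase C gamma that docks on activated Kdr, fell and averaged 151 ± 7.47 against 93.7 ± 3.77 CPM (limma adjusted p = 1.35e-06). Gab1, a docking protein downstream of the same receptor, fell with 57.6 ± 4.74 against 20.5 ± 3.77 CPM (limma adjusted p = 1.67e-06). Grb2, the adaptor that links receptors to RAS, rose with 149 ± 2.01 against 204 ± 2.63 CPM (limma adjusted p = 3.35e-06). Ptk2, the focal adhesion kinase, rose with 25.3 ± 3.07 against 54.5 ± 4.42 CPM (limma adjusted p = 4.00e-06). The 4 genes with the smallest p thus held 2 that fell and 2 that rose.

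Of 23 genes known to be induced by VEGF in endothelium or to feed back on its signal, 16 were tested, 6 rose and 5 fell (median log2 difference 0.04). Spry4, an inhibitor of receptor kinase signals, rose with 1.20 ± 0.486 against 18.9 ± 2.61 CPM (limma adjusted p = 1.76e-07). Its relative Spry1 fell with 32.6 ± 1.86 against 18.97 ± 1.47 CPM (limma adjusted p = 3.76e-05). Egr1, an immediate early factor, rose with 33.7 ± 3.33 against 54.3 ± 4.77 CPM (limma adjusted p = 5.94e-05). Vcam1, an adhesion molecule that also marks macrophages, fell with 5.89 ± 0.822 against 0.873 ± 0.828 CPM (limma adjusted p = 4.74e-05).

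Of 17 genes for receptor phosphatases and trafficking, 14 were tested, 4 rose and 5 fell (median log2 difference -0.07). Rab4a and Rab5a, which route receptors through endosomes, rose. Rab4a averaged 29.2 ± 3.05 against 49.04 ± 3.55 CPM (limma adjusted p = 3.68e-05) and Rab5a 43.04 ± 2.70 against 61.6 ± 4.22 CPM (limma adjusted p = 0.000110). Epn1, an endocytic adaptor, rose with 24.1 ± 0.468 against 33.9 ± 1.93 CPM (limma adjusted p = 0.000387). Ephb4, a receptor of venous endothelium, fell with 23.1 ± 2.999 against 8.64 ± 4.18 CPM (limma adjusted p = 0.000312).

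All 12 genes of the hypoxia factor machinery, which controls Vegfa, were tested, 2 rose and 6 fell (median log2 difference -0.15). Hif3a, a hypoxia factor subunit, fell with 83.1 ± 1.88 against 26.5 ± 1.55 CPM (limma adjusted p = 4.58e-08). The co-activator Ep300 fell with 144 ± 8.70 against 97.2 ± 13.2 CPM (limma adjusted p = 0.000110), and Vhl, which marks hypoxia factors for destruction, with 43.8 ± 2.09 against 30.8 ± 4.06 CPM (limma adjusted p = 0.000741). Egln2, an oxygen-sensing hydroxylase, rose with 97.5 ± 4.79 against 126 ± 10.01 CPM (limma adjusted p = 0.000439). Hif1a, at 106 and 108 CPM, was not past the threshold.

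Of 25 hypoxia target genes other than Vegfa, 22 were tested, 4 rose and 12 fell (median log2 difference -0.25). Without CDKO replicate 2 or control replicate 1, the number that rose was 2. Ero1l, an enzyme of protein folding, fell with 56.6 ± 2.21 against 23.7 ± 2.13 CPM (limma adjusted p = 5.60e-07). Pfkfb4, a regulator of glycolysis, and Ak4, a nucleotide kinase, fell too. Pfkfb4 averaged 28.2 ± 3.62 against 10.04 ± 2.26 CPM (limma adjusted p = 1.41e-05) and Ak4 34.1 ± 4.30 against 16.2 ± 2.47 CPM (limma adjusted p = 2.86e-05). Ldha, a glycolytic enzyme whose count is uncertain because it has near-identical pseudogenes, rose with 627 ± 18.4 against 835 ± 25.95 CPM (limma adjusted p = 6.64e-06).

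Of 27 transcription factors of endothelium and HSC, 17 were tested, 4 rose and 2 fell, which is 35.3% called (median log2 difference 0.03), and the number that fell was 4 after quantile normalization. Mef2c, a MADS-box factor, rose with 245 ± 13.3 against 390.3 ± 29.7 CPM (limma adjusted p = 2.81e-06). Klf4 rose with 1.07 ± 0.276 against 4.20 ± 0.0778 CPM (limma adjusted p = 1.85e-05). Tal1 and Lyl1, related blood stem cell factors, fell. Tal1 averaged 86.1 ± 1.95 against 63.2 ± 1.29 CPM (limma adjusted p = 2.72e-05) and Lyl1 46.9 ± 2.67 against 32.1 ± 1.36 CPM (limma adjusted p = 8.48e-05). Erg, at 45.3 and 46.2 CPM, Ets1, at 54.6 and 55.9 CPM, and Gata2, at 475 and 459 CPM, were not past the threshold. Sox17, Foxc1, Foxc2 and Hey2 had 0 reads in all libraries.

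**Figure D5:**
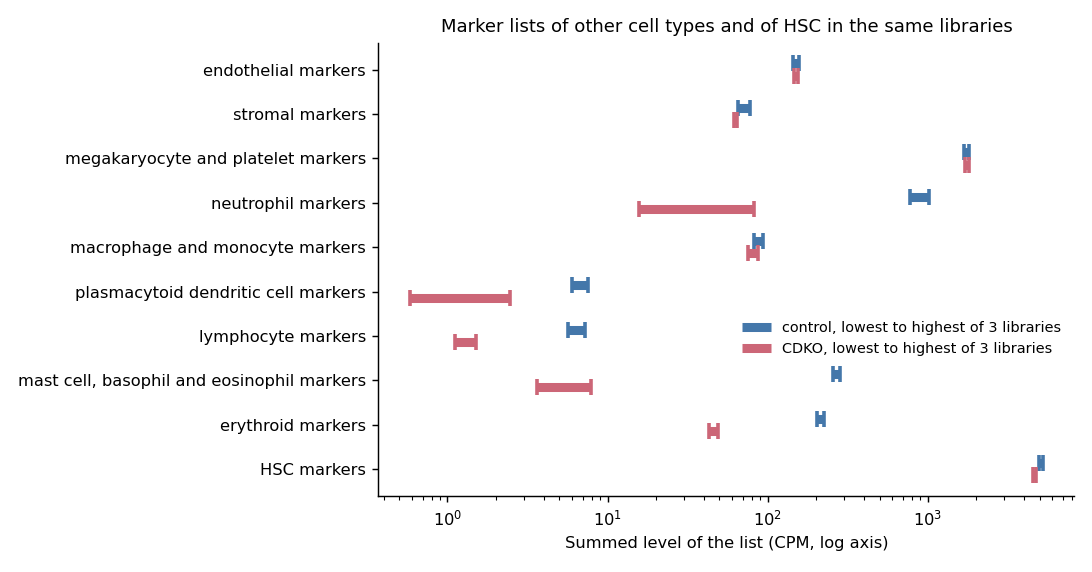
Summed CPM of each marker list (log axis), drawn from the lowest to the highest of the 3 control and of the 3 CDKO libraries. Endothelial and megakaryocyte sums overlap between the groups, while neutrophil, mast cell and erythroid sums are lower in every CDKO library.

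The receptors are best known from other cells, so marker lists of those cells were read in the same libraries. The 15 endothelial markers summed to 143 to 156 CPM in control and 147 to 154 CPM in CDKO libraries, and of the 9 tested 2 rose and 3 fell. Of the 15, Mmrn2, Lyve1 and Pdpn had 0 reads in all libraries, and Cdh5 and Prox1 had 0 reads in control libraries and CDKO means of 0.0239 and 0.0156 CPM. Those that rose were Rasip1, with 10.9 ± 0.929 against 19.7 ± 1.22 CPM (limma adjusted p = 8.62e-05), and Sox18, with 8.39 ± 0.476 against 10.8 ± 0.441 CPM (limma adjusted p = 0.0325). Sox18 missed the threshold without CDKO replicate 2, CDKO replicate 3, control replicate 2 or control replicate 3 (limma adjusted p up to 0.0911). Cldn5, with 6.12 ± 1.31 against 1.01 ± 0.913 CPM (limma adjusted p = 0.000160), and Stab2, with 0.561 ± 0.353 against 0.0468 ± 0.0810 CPM (limma adjusted p = 0.0171), fell, Stab2 not after quantile normalization or without control replicate 3 (limma adjusted p up to 0.0755). Robo4, a receptor also known from HSC, and Ecscr had the highest levels. Robo4 fell with 72.2 ± 3.95 against 62.1 ± 3.70 CPM (limma adjusted p = 0.0134), but not without control replicate 3 (limma adjusted p = 0.0636), and Ecscr, at 25.5 and 28.6 CPM, was not past the threshold.

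The 10 stromal markers summed to 65.3 to 77.6 CPM in control and 61.5 to 64.6 CPM in CDKO libraries, and of the 5 tested 2 rose and 1 fell. The collagen gene Col1a2 was highest and fell with 45.7 ± 3.99 against 32.3 ± 1.98 CPM (limma adjusted p = 0.000374), Pdgfrb, at 22.5 and 18.4 CPM, did not pass, and Lum had 0 reads. The 12 megakaryocyte and platelet markers, of a lineage that stores VEGF, summed to 1676 to 1803 CPM in control and 1718 to 1813 CPM in CDKO libraries, and of the 11 tested 9 rose. Itga2b rose with 192 ± 15.5 against 219.7 ± 13.6 CPM (limma adjusted p = 0.0159), with overlapping groups, and missed the threshold without control replicate 1, control replicate 3 or CDKO replicate 3 (limma adjusted p from 0.0609 to 0.0807). The 13 macrophage and monocyte markers summed to 82.03 to 93.6 CPM in control and 75.6 to 86.7 CPM in CDKO libraries, and of the 12 tested 4 rose and 6 fell, Cd68 and Ccr2 among the latter.

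Other blood lineages were lower in every CDKO library. The 10 neutrophil markers, led by Ngp and Ltf, summed to 776 to 1020 CPM in control and 15.7 to 81.9 CPM in CDKO libraries, and all 10 fell. The 6 mast cell, basophil and eosinophil markers, led by Prss34 and Epx, summed to 256 to 285 CPM in control and 3.65 to 7.86 CPM in CDKO libraries, and all 6 fell. The 9 erythroid markers summed to 202 to 224 CPM in control and 43.1 to 49.1 CPM in CDKO libraries, and of the 6 tested 5 fell. Klf1, the erythroid master factor, was among them, the erythropoietin receptor gene Epor, at 27.1 and 30.4 CPM, did not pass, and Hba-a1 and Hbb-bt are listed at 0.

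The 5 plasmacytoid dendritic cell markers summed to 6.03 to 7.51 CPM in control and 0.584 to 2.46 CPM in CDKO libraries, and both of those tested, Pacsin1 and Siglech, fell, Siglech not in DESeq2 (adjusted p = 0.270). The 7 lymphocyte markers summed to 5.65 to 7.21 CPM in control and 1.12 to 1.52 CPM in CDKO libraries. Cd79a, at 1.37 and 0.991 CPM, did not pass, and Cd3e, Cd3g and Ms4a1 had 0 reads. The 12 HSC markers, led by Kit, summed to 4990 to 5235 CPM in control and 4573 to 4767 CPM in CDKO libraries, and 5 rose and 6 fell. Nrp1, Kdr and Flt4 were thus higher in libraries where the neutrophil, mast cell, erythroid, dendritic cell and lymphocyte sums were lower. The part of these other cells in the levels of the VEGF family was not tested.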

How the data were processed

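Sequenced RNA of HSC came from 6 libraries, 3 per group. Per the labels' protocols, RNA was amplified with a SMARTer Ultra Low Input kit and libraries were built with Nextera XT, neither of which marks strand. The tools TopHat2, HTSeq and DESeq2 and the build mm10 are named per the submitters' processing notes, and the annotation is not given in the sources used here. The deposited CPM values gave whole reads for 99.9989% of values above 0, to within 0.01 of a read, which also gave each depth. Of the authors' other deposited columns, a signal scaled by size factors, a log2 fold change with its error, a test score and the p-values entered no result.

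Genes with a mean of at least 10 recovered reads (0.255 CPM) were fitted in limma 3.58.1 (R 4.3.3) on log2(CPM + 1), CDKO minus control, with a variance trend and two-sided Benjamini-Hochberg adjusted p over 13734 genes (threshold 0.05). 12 genes whose names had become dates were left out. The family and the lists were chosen with earlier results of these data known. The 19 lists held 291 entries, all found, 1 under an older symbol. Named are the family, Nr4a1 and Nr4a3, up to 4 genes of smallest p past the threshold in each pathway list, the 2 highest markers of each cell type with defining markers at 0 (some markers are not reported here), the 2 genes most like each family gene, and neighbours that could share reads. Plxna3, Sema3a, Figf, Tie1, Hif1a, Erg, Ets1, Gata2, Cdh5, Prox1, Rasip1, Sox18, Cldn5, Stab2 and the factors at 0 were chosen after their values were seen. Alternatives comprised the replicate number as a block, each library left out, filters, scalings, pseudocounts, count tests of the recovered reads in edgeR 4.0.16 (8789 genes called) and DESeq2 1.42.0 (8791 genes called) and a threshold of 0.1. Positions and exon lengths are from GENCODE M21 and promoters from RefSeq, both on GRCm38.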

Additional observations from a re-analysis of the deposited data

How the results depend on the processing

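The number of genes called over all genes, 9097, ran from 8251 to 9920 over 16 alternatives, and the total calls in each of the 9 pathway lists stayed within 1.5 times. Counts in 1 direction moved further. With 1 library left out, higher calls went from 4 to 2 in the PDGF list and in the hypoxia target list and from 2 to 1 in the angiopoietin list, and lower calls from 1 to 0 in the semaphorin list. Higher semaphorin calls were 3 in place of 5 with a mean of at least 50 reads, lower angiopoietin calls were 2 in place of 1 with no filter, and lower transcription factor calls were 4 in place of 2 after quantile normalization. Nothing in the labels ties replicate numbers to shared animals or days, and deviations of libraries with the same number correlated at 0.0518, 0.0483 and -0.0120, so the numbers were not read as pairs. With the replicate number as a block, limma called 9242 genes, 8995 of them shared with the 9097. Of the 49 list genes named for a small p or a high level that passed, 44 passed under every alternative run. Angpt2, Robo4, Itga2b and Siglech were among those that did not. Genes chosen after their values were seen are outside this count, and of these Plxna3, Sox18 and Stab2 lost their call under some alternatives. Quantile normalization moved the median of all genes by 0.04 on the log2 scale. The number of family genes lower in CDKO libraries without overlap, 2, was 1 after TMM scaling and 1 after quantile normalization, where Vegfc overlapped. The number higher, 4, was 5 without control replicate 3 and after quantile normalization, where Nrp2 separated. The log2 differences of the family other than Flt1 and Vegfa kept their sign under 12 alternatives each. For the 6 genes without overlap, a library left out or another pseudocount could not turn the sign, so the kept sign is a description only. In the rarer genes their size varied with pseudocount and count model, from 1.20 to 11.01 for Nrp1, 1.61 to 4.46 for Flt4, 1.04 to 2.63 for Kdr and -3.94 to -0.13 for Pgf. Vegfa ran from -0.12 to 0.01. Depth limits Flt1, Pgf and Nrp2, which had 0, 61 and 38 control reads and 6, 4 and 70 CDKO reads.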
